A study of Danio rerio with 14 samples.

Results

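The step from 9 to 18 hours post injury (hpi) in regenerating lateral rectus (LR) muscle was described gene by gene from the comparison of the H9 and H18 groups. The members were all 31014 features in that comparison, and a log2 change was computed for the 12657 features with a mean of at least 1 FPKM over H9 and H18, while 18357 fell under this filter. FPKM is the number of fragments scaled by transcript length and, here, by an upper quartile of the library's counts in place of its total. It is a level per length, so levels of different genes can be set side by side. The log2 change was log2 of H18 FPKM plus 0.1 over H9 FPKM plus 0.1, so a positive value means a higher level at 18 hpi, and the added 0.1 understates the change of low genes. At the edge of the filter, tpd52l1 lay just outside with 0.976 FPKM at H9 and 1.02 at H18, and aldh9a1b lay just inside with 0.998 and 1.004 FPKM.

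The LR, which rotates the eye away from the nose, is 1 of the extraocular muscles (EOMs). Adult zebrafish labelled with the actin:GFP genotype had part of the muscle cut away, and what remained was collected by laser microdissection 9 h later (H9, 5 libraries) or 18 h later (H18, 5 libraries). Uninjured LR muscle of the same genotype (CON, 4 libraries) is given beside them for level only, and the 10 libraries of H9 and H18 were part of 14 in the series. No library came from 1 fish, since each pooled the tissue of several, and whatever other cells lay in the dissected area were carried along with the myofibers. In bulk RNA of this kind, fewer cells of a type and less RNA per cell cannot be told apart. The authors' software had combined the libraries of a group into 1 FPKM, so no SD, no n and no test accompanies any value below, and every difference is a difference between those 2 group values, with no replicate check.

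Zebrafish EOMs regrow after such an excision from the surviving muscle fibers, whose cells take their contractile apparatus apart, dedifferentiate and re-enter the cell cycle. Cell cycle entry requires that replication origins are licensed by the Mcm helicase and then copied by polymerases with the sliding clamp Pcna, while histones are made in step with new DNA. Removal of old muscle protein draws on the proteasome and on lysosomes, and phagocytes entering a wound bring lysosomes of their own.

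Of the 12657 features, 2005 were at least 1.5-fold higher at H18 (15.8%) and 3004 were at least 1.5-fold lower (23.7%), which left 7648 within 1.5-fold. These percentages are the background against which each count of list members below is read, unless the shift described next was removed. At least 4-fold separated the groups for 325 features that were higher and 285 that were lower. The median log2 change of all features was -0.135 on the deposited scale, with the middle 50% between -0.56 and 0.31. When that shift was removed, 2528 features were higher and 2287 lower, so that the lower share of the features past 1.5-fold went from 60.0% to 47.5%, and the balance of the directions therefore rests on the scale. List medians below are on the deposited scale and are to be read against -0.135. Counts given with the shift removed are to be read against those 2528 higher and 2287 lower features of 12657.

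**Figure D1:**
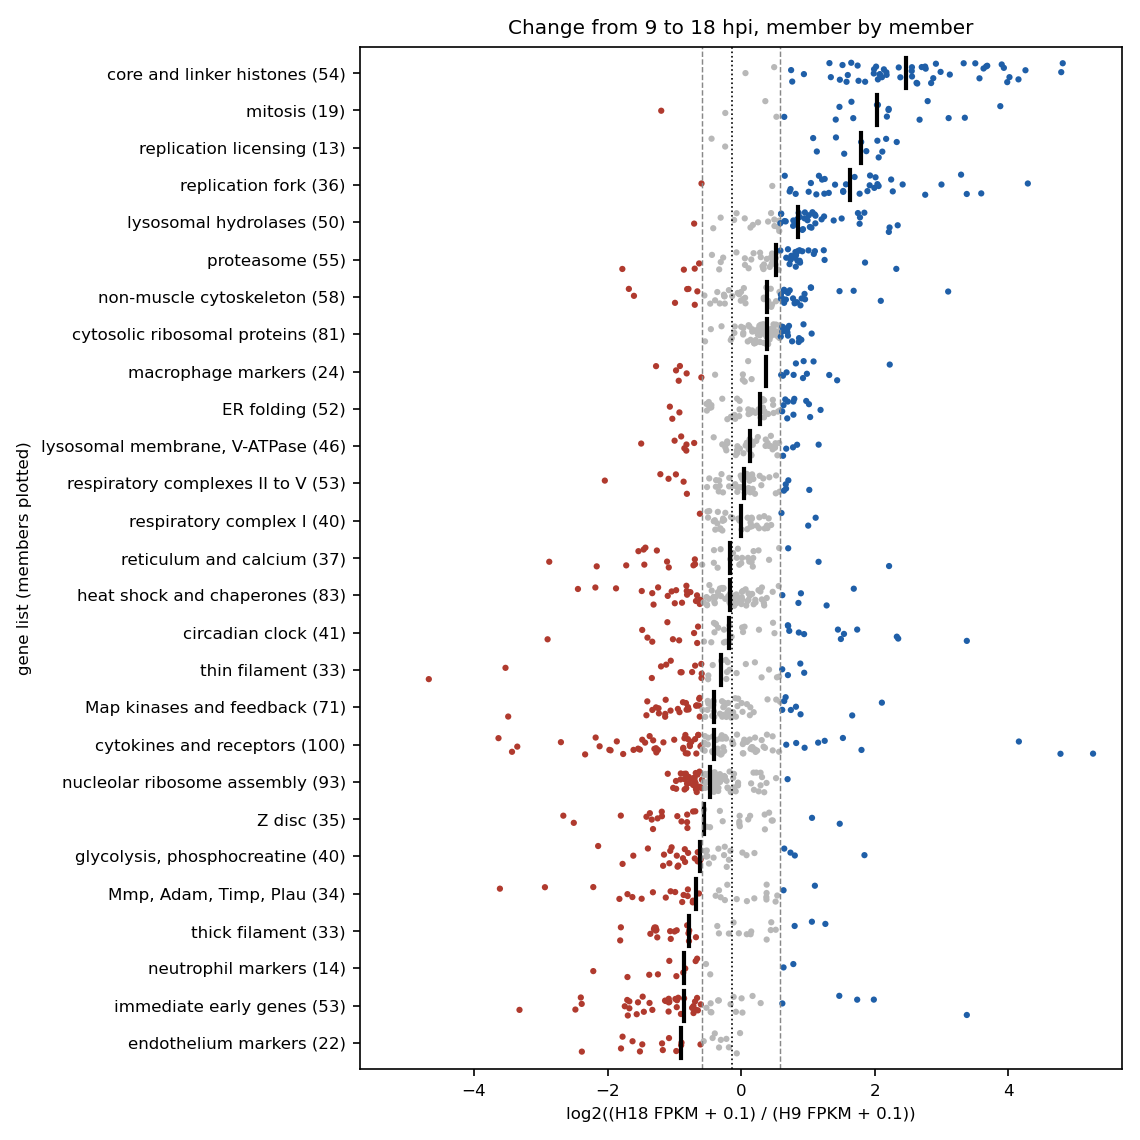
Log2 change from H9 to H18 (x axis) of every member of 27 gene lists that passed the filter (1 point for each gene, blue at least 1.5-fold higher at H18, red at least 1.5-fold lower, grey in between), with the list median as a black bar, the median of all genes as a dotted line and 1.5-fold as dashed lines. Among these 27 lists histones lie highest, with a median of 2.47, and endothelium markers lowest, with a median of -0.90. Lists with lower medians, such as erythrocyte markers (-1.06) and pigment, lens, cartilage and bone markers (-1.75), are not plotted.

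Among features with a symbol, a mean of at least 5 FPKM and neither group listed at 0, the 15 largest upward differences took in histones, lipid and lysosomal genes and short RNA features. The gene ifi30, a lysosomal thiol reductase that unfolds antigens, went from 13.9 FPKM at H9 to 160 at H18 (log2 change 3.51), with 13.1 in CON. The fatty acid carrier fabp11a stood at 86.0 FPKM at H9 and 701 at H18 (log2 change 3.03). Apolipoprotein apoc1l was at 2.07 FPKM at H9 and 28.5 at H18 (log2 change 3.72). All 3 were therefore close to their CON level at 9 hpi and well above it at 18 hpi, since fabp11a was at 60.8 FPKM and apoc1l at 1.53 in CON. The other large differences were those of hist1h4l, hist2h3ca1 and h2afx, described with the histones, aaas (a nuclear pore protein, log2 change 3.54), sftpbb (2.75) and atic, which makes purine nucleotides (2.70). The microRNA features mir738, mir1-1, mir23a-1 and mirlet7b and 2 features on short unplaced scaffolds, evlb and a copy of ccpg1, complete these 15, but a short feature can reach a high FPKM from little sequence and these 6 are not pursued.

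By the same rule, the 15 largest downward differences took in genes that stood above CON at 9 hpi and muscle genes that already stood below it. The RNA-binding gene csdc2b was at 0.406 FPKM in CON, 10.4 at H9 and 0.874 at H18 (log2 change -3.43). The Cdk inhibitor cdkn1d was at 7.24 FPKM in CON, 10.9 at H9 and 0.950 at H18 (log2 change -3.40). The chloride channel gene clic5a was at 22.4, 50.4 and 7.32 FPKM (log2 change -2.77), and the lipid transporter mfsd2ab at 10.2, 19.96 and 3.41 FPKM (log2 change -2.51), in the order CON, H9 and H18. For each of these 4, H9 held the highest level of the 3 groups. Coagulation factor gene f13a1a.1, at 163 FPKM at H9 and 32.9 at H18 (log2 change -2.30), was the most abundant of the 15, which also held maff, fos and fosl1a, the muscle genes fbxo32, pvalb7, myoz1b and ppp1r27, the matrix gene spp1, the keratin krt91 and mirlet7a-5.

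Most genes for DNA replication on the lists stood higher at 18 hpi. Since a gene can pass the filter through its H18 value alone, the direction was also counted over all members with no filter. H18 was above H9 in 26 of 29 origin licensing genes, 43 of 45 replication fork genes and 70 of 74 mitosis genes. Over all 31014 features H18 was above H9 in 10864 (35%) and below it in 16428, and the rest, equal in both groups, are part of that total. Of 29 origin licensing genes, 13 passed the filter, 11 of them were higher by at least 1.5-fold and none was lower (84.6% higher against 15.8% of all features), with a median log2 change of 1.80. All 6 subunits of the Mcm2 to Mcm7 helicase were higher, with log2 changes from 1.54 to 2.33 and summed levels of 9.66 FPKM in CON, 16.5 at H9 and 65.0 at H18. The helicase subunit mcm2 (chromosome 22, 5604034 to 5624913 on GRCz10, the span of the whole gene as for all positions below) stood at 2.02 FPKM in CON, 2.91 at H9 and 14.997 at H18 (log2 change 2.33). The 2 members within 1.5-fold were orc3, at 3.80 FPKM at H9 and 2.77 at H18, and mcmbp, at 5.83 and 4.92. For the mcm genes the highest of the 3 group levels was thus that of H18, and no member of the list past the filter was lower by 1.5-fold.

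At the replication fork, 36 of 45 genes passed the filter, 34 were higher and 1 was lower, with a median log2 change of 1.63, or 1.08 with 1 FPKM added in place of 0.1. The clamp pcna (chromosome 10, 40900618 to 40905492) had 23.4 FPKM in CON, 8.64 at H9 and 42.0 at H18 (log2 change 2.27). It was the most abundant member and, unlike mcm2, lay below its CON level at 9 hpi. The thymidylate synthase gene tyms, which makes the DNA base thymine's nucleotide, showed the largest change of the list, from 0.216 FPKM at H9 to 6.09 at H18 (log2 change 4.29). Other nucleotide genes past 1.5-fold were dhfr (3.38), tk1 (3.29), dut (2.01) and rrm1 (1.99), each given as a log2 change, and the CTP synthase gene ctps1a was the only member that was lower, at 11.8 FPKM at H9 and 7.78 at H18. The chaperones that place new histones behind the fork followed the same direction, chaf1a with a log2 change of 2.75 and chaf1b with 3.59. All 5 subunits of the clamp loader Rfc were higher, with log2 changes from 0.72 to 1.53, and of 8 polymerase and primase subunits past the filter 7 were higher and pole3, at 2.21 and 3.09 FPKM, stayed within 1.5-fold.

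**Figure D2:**
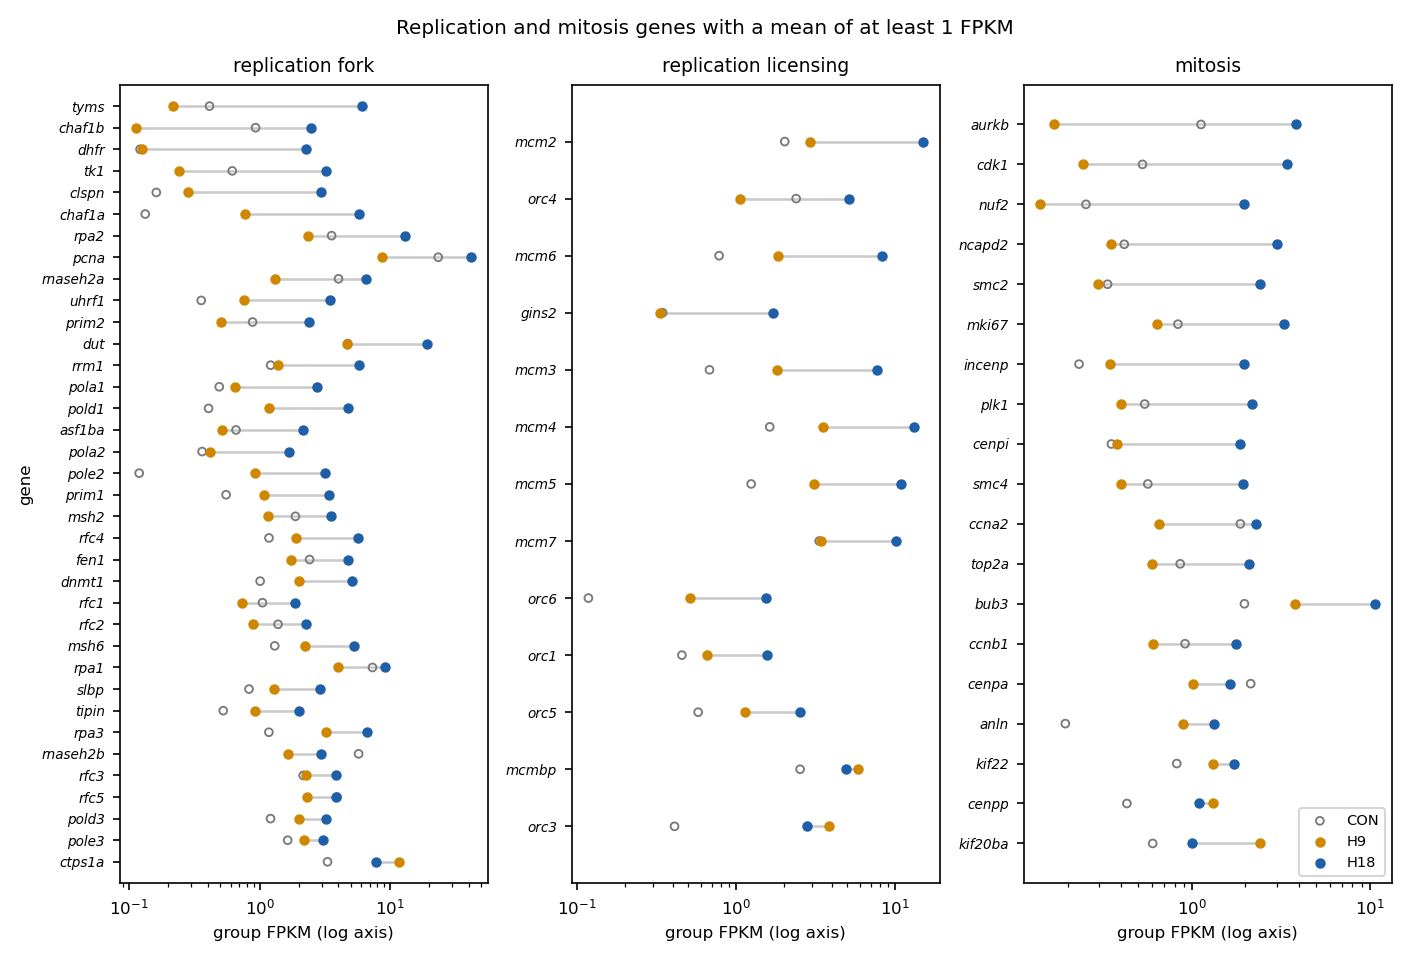
Group FPKM on a log axis of the 36 replication fork, 13 licensing and 19 mitosis genes that passed the filter (open grey circle CON, orange H9, blue H18, 1 authors' value a group with no error bar). H18 lies to the right of H9 for 35 of 36, 11 of 13 and 17 of 19 genes.

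Mitosis genes were higher too, but at low levels. Only 19 of 74 passed the filter, of which 15 were higher and 1 was lower, with a median log2 change of 2.03. The largest were aurkb, the kinase of the chromosomal passenger complex, at 0.168 FPKM at H9 and 3.85 at H18 (log2 change 3.88), and cdk1, the kinase that starts mitosis, at 0.245 and 3.41 FPKM (log2 change 3.35). The spindle checkpoint gene bub3 was the most abundant at 3.82 FPKM at H9 and 10.8 at H18 (log2 change 1.47), and it alone of the list had a mean of at least 5 FPKM. Proliferation marker mki67 went from 0.633 to 3.29 FPKM (log2 change 2.21) and kinesin kif20ba was lower at 2.42 and 1.001 FPKM. Because 55 of the 74 genes fell under the filter, the count describes those 19 genes and not mitosis genes in general. The pseudocount weighs on such levels, and with 1 FPKM in place of 0.1 the median became 1.07.

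G1 cyclins, Cdks and regulators of Cdks showed smaller changes, though most leaned upward. With no filter, H18 was above H9 in 24 of the 32 genes (75% against 35% of all features) and below it in 8. Of 32 genes, 18 passed the filter, with a median log2 change of 0.32. Higher were 4 (22.2% against 15.8% of all features) and lower were 3 (16.7% against 23.7%). Higher were cdc25b, a phosphatase that activates Cdks (log2 change 1.32), ccnd2a (11.8 FPKM at H9 and 22.9 at H18), tfdp1b and cdk4. The 3 lower genes were wee1, a kinase that restrains Cdk1 (log2 change -1.35), and the Cdk inhibitors cdkn1bb (7.81 and 3.54 FPKM) and cdkn1ba (4.94 and 2.65 FPKM). The Cdk inhibitor cdkn1d, which is outside the list, had a log2 change of -3.40, while the Cdk inhibitor cdkn1a was at 1.03 FPKM at H9 and 1.30 at H18.

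Most core and linker histone genes were higher at 18 hpi. This list was drawn up after the values had been seen, from deposited descriptions that begin with the word histone, plus h2afx, and so leaves out the replacement histones given below. It held 58 features, of which 54 passed the filter, 52 were higher and none was lower, with a median log2 change of 2.47. By class, the median log2 change was 2.98 for 15 H2A, 2.37 for 16 H2B, 2.91 for 5 H3, 2.08 for 9 H4 and 1.59 for 8 H1 features. Summed over the list, the level was 277 FPKM in CON, 189 at H9 and 1210 at H18. Histone H4 gene hist1h4l (chromosome 25, 34602423 to 34602858) was at 2.78, 4.55 and 57.4 FPKM in CON, H9 and H18 (log2 change 3.63), and the H2A variant gene h2afx at 16.9, 7.96 and 70.1 FPKM (log2 change 3.12). The most abundant was an H2A-like feature, LOC100006331, at 7.34 FPKM at H9 and 111 at H18. Many of these genes are near-identical copies, the reads were short, and those that fit several places were shared out by the authors' software, so the division among copies is uncertain and the class sums are firmer than the single genes. Replacement histones, which are made outside S phase, did not all follow. In H9 and H18, h3f3c stood at 6.80 and 6.91 FPKM, h3f3d at 35.4 and 30.6 and h3f3b.1, which was lower, at 22.9 and 14.9, although h3f3a (21.6 and 38.1) and h2afvb (25.3 and 51.9) were higher.

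Lysosomal enzymes were also higher at 18 hpi. Of 61 hydrolases and their helpers, 50 passed the filter, 34 were higher and 1 was lower, with a median log2 change of 0.85, and the summed level went from 419 FPKM in CON to 1470 at H9 and 3930 at H18. The protease cathepsin B gene ctsba (chromosome 17, 32670392 to 32677772) was at 19.2 FPKM in CON, 167 at H9 and 850 at H18 (log2 change 2.34). The aspartyl protease gene ctsd was at 31.2, 137 and 470 FPKM (log2 change 1.78). Legumain gene lgmn, whose product activates cathepsins, was at 21.3, 238 and 622 FPKM (log2 change 1.38). In these 3 genes H9 was above CON and H18 above H9.

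Others were near or below CON at 9 hpi and high only at 18 hpi. The gene psap, which encodes the saposins that present lipids to hydrolases, stood at 85.6 FPKM in CON, 109 at H9 and 511 at H18 (log2 change 2.22), and ctsh at 12.6, 7.05 and 33.0 FPKM (log2 change 2.21). Counting all cathepsins, 7 of 11 past the filter were higher and none lower. Ceramidase gene asah1a was the 1 member that was lower, at 3.56 FPKM at H9 and 2.15 at H18, while ctsla (209 and 295 FPKM) and the granulin gene grn1 (118 and 122 FPKM) were abundant and stayed within 1.5-fold.

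Fewer members of the lysosomal membrane and its acidifying machinery were past 1.5-fold. Of 53 genes on this list 46 passed the filter, 5 were higher and 7 lower, with a median log2 change of 0.14. When the shift of all genes was removed 11 were higher and 6 lower. The list also holds the transcription factor gene tfeb, so these counts are not of membrane and pump genes alone. Of 19 vacuolar ATPase genes 2 were higher, atp6v1d (19.5 and 34.9 FPKM) and atp6v1h (24.9 and 39.8 FPKM), and 1, atp6v0cb, was lower. The summed level of the list was 934 FPKM at H9 and 1050 at H18. Most abundant was the tetraspanin gene cd63, at 252 and 264 FPKM. Regulator tfeb, a transcription factor for lysosomal genes in mammals, was among the lower ones at 11.9 FPKM at H9 and 4.14 at H18 (log2 change -1.50), with 9.99 in CON, and its relatives mitfa and tfec were lower as well, with log2 changes of -0.85 and -0.82.

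Macrophage markers moved along with the hydrolases in part. Of 31 markers 24 passed the filter, 12 were higher and 6 lower, with summed levels of 243 FPKM in CON, 803 at H9 and 942 at H18, and irg1l alone was listed at 0 at H18. The perforin-like gene mpeg1.1 was at 8.91 FPKM at H9 and 24.3 at H18 (log2 change 1.44), the lipid carrier apoeb at 25.7 and 121 FPKM (log2 change 2.22), and all 3 C1q chains were higher, with log2 changes from 0.78 to 0.98. The growth factor receptor gene csf1ra, which macrophages need, was at 34.9 and 35.5 FPKM, and 5 of 6 ms4a17a genes past the filter were lower. Pan-leukocyte markers gave summed levels of 717 FPKM at H9 and 700 at H18, with none of 22 higher and 5 lower, or 2 higher and 3 lower with the shift removed. The most abundant macrophage marker, ccl34a.4, was lower, at 208 and 86.1 FPKM, which weighs on the marker sum. The median log2 change of the macrophage markers was 0.38. It was 0.10 with no filter, 0.65 with a mean of at least 5 FPKM and 0.73 without members on another list. The part that macrophages had in the hydrolase levels was not tested.

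**Figure D3:**
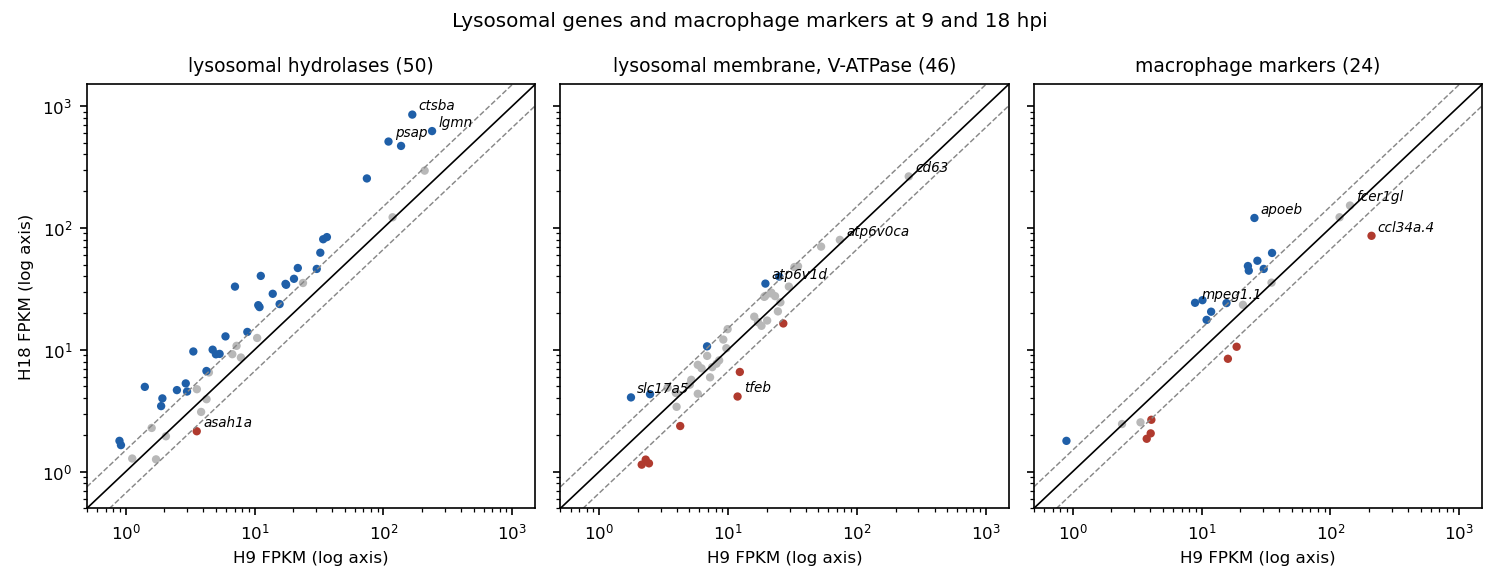
H18 FPKM against H9 FPKM, both on log axes, for lysosomal hydrolases (50 genes), lysosomal membrane and V-ATPase genes (46) and macrophage markers (24). The 46 include the transcription factor gene tfeb. Each gene is 1 point, coloured as blue higher, red lower and grey within 1.5-fold. The solid line marks equal levels and the dashed lines a 1.5-fold difference, and 34 hydrolases lie above the upper band compared with 5 membrane genes.

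Neutrophil markers went the other way, with 10 of 14 lower and 2 higher, and a median log2 change of -0.85 (-0.64 with 1 FPKM added). Their summed levels were 141 FPKM in CON, 500 at H9 and 364 at H18. The granule peroxidase gene mpx was at 7.96 FPKM at H9 and 4.92 at H18, and the receptor gene csf3r at 36.7 and 20.1 FPKM. The 2 that were higher were adam8a (50.9 and 79.1 FPKM) and lyz, which stood at only 0.920 and 1.65 FPKM.

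Proteasome genes were higher as a group. Of 56 genes 55 passed the filter, 24 were higher and 4 lower, with a median log2 change of 0.52, and the counts became 32 and 2 when the shift of all genes was removed. In the catalytic core, 6 of 7 constitutive beta subunits and 3 of 8 alpha subunits were higher, and 4 of 7 ATPases of the regulatory base. The 3 interferon-inducible beta subunits of the immunoproteasome had the largest log2 changes of the list, psmb9a from 1.09 to 5.85 FPKM (log2 change 2.32), psmb10 from 2.75 to 10.2 (1.85) and psmb8 from 4.62 to 11.1 (1.25). At 9 hpi psmb9a, psmb10 and psmb8 had been below their CON levels of 5.69, 4.40 and 9.45 FPKM. The activator psme4a was lower, from 6.86 to 1.93 FPKM (log2 change -1.78). The muscle ubiquitin ligase gene fbxo32 (atrogin-1, chromosome 16, 25344281 to 25357601), which marks proteins in wasting muscle, went from 30.5 FPKM at H9 to 4.19 at H18 (log2 change -2.83), with 35.1 in CON. It was not typical of its list of atrophy ligases and related genes, of which 13 passed the filter. Of these, 10 stayed within 1.5-fold, 1 was higher and 2 were lower (15.4% against 23.7% of all features). Their median log2 change was -0.26. In the autophagy list 9 of 37 genes were lower, a share of 24.3% that is close to the 23.7% of all features, and 1 was higher. The most abundant of them, the cargo receptor gene sqstm1, was lower at 91.6 and 42.4 FPKM (log2 change -1.11).

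Immediate early genes, which code for transcription factors and regulators that respond to injury within minutes to hours, were lower at 18 hpi. Of 61 such genes 53 passed the filter, 35 were lower and 5 higher (66.0% lower against 23.7% of all features), with a median log2 change of -0.86. The AP-1 factor gene fosl1a was at 1.06 FPKM in CON, 46.6 at H9 and 8.82 at H18 (log2 change -2.39). Of 12 AP-1 factor genes past the filter, 10 were lower, among them fos (16.9 and 3.13 FPKM), maff (18.7 and 3.26 FPKM) and junbb (79.3 and 30.6 FPKM), and junba and fosl1b were within 1.5-fold. At H18 fosl1a and junbb were still above CON, where junbb stood at 20.5 FPKM, while fos lay below its CON level of 9.51.

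The Myc genes, which drive growth and ribosome production, showed the same order of groups. The most abundant was mych, at 1.88 FPKM in CON, 49.5 at H9 and 17.8 at H18 (log2 change -1.47), followed by mycb at 6.95, 34.6 and 11.6 FPKM (log2 change -1.56). The exception was mycn, at 0.875 FPKM at H9 and 1.39 at H18. The 5 higher members were mycn, klf4 (log2 change 1.99), cyr61l1 (1.47) and the clock genes per1a and per1b, which are also described below. The most abundant member, cebpb, a regulator of inflammatory genes, was at 97.9 and 59.7 FPKM.

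**Figure D4:**
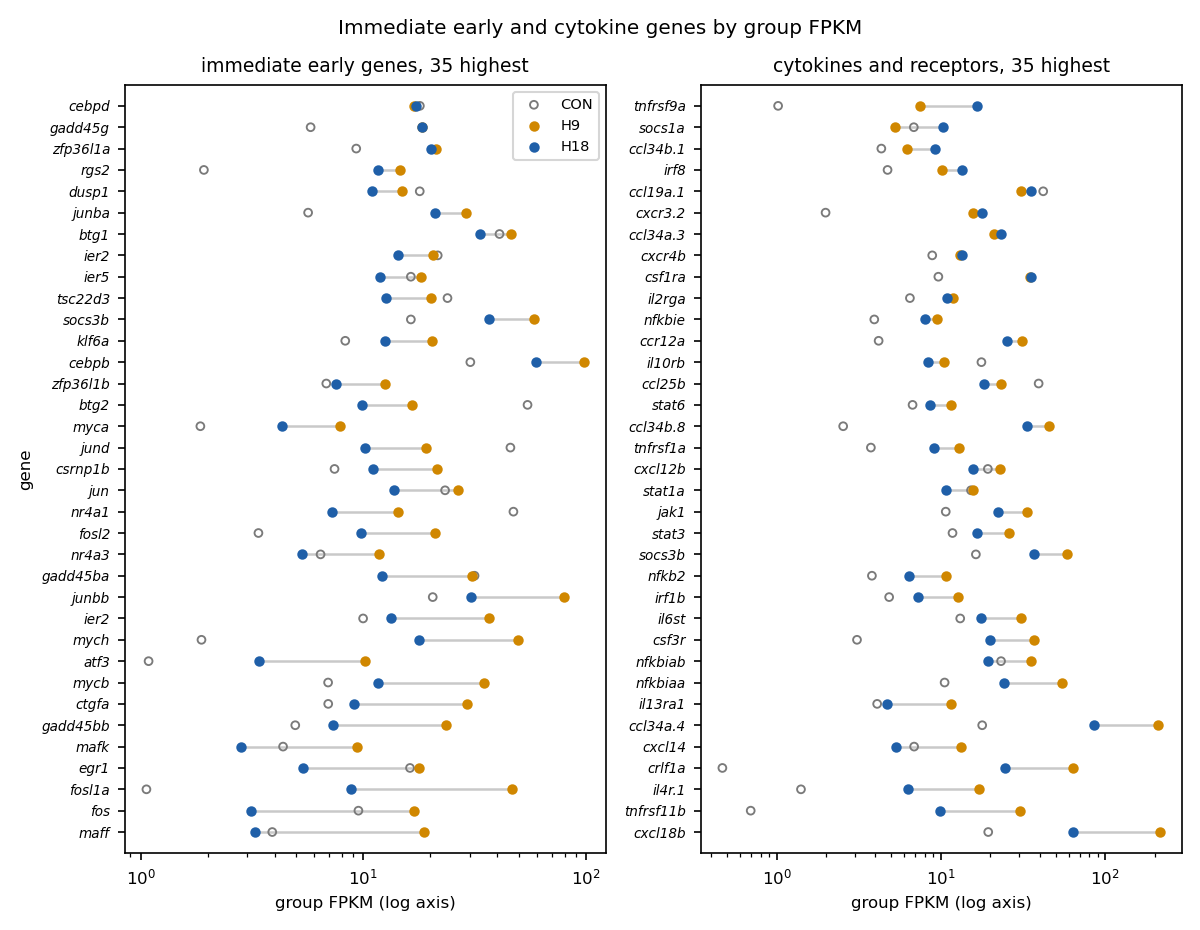
Group FPKM on a log axis of the 35 most abundant immediate early genes and the 35 most abundant cytokine and receptor genes (open grey circle CON, orange H9, blue H18, 1 authors' value a group, no point where CON is listed at 0). Blue lies to the left of orange for most, as for fosl1a (46.6 at H9, 8.82 at H18) and cxcl18b (216 and 63.4).

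Genes of the Map kinase pathway, kinases as well as feedback inhibitors, were also lower in part. Of 96 genes on this list 71 passed the filter, 24 were lower and 8 higher, with a median log2 change of -0.40, or 18 and 10 with the shift removed. Among dual specificity phosphatases, some of which switch Map kinases off, 8 of 14 were lower, including dusp5 (18.2 and 6.75 FPKM) and dusp6 (22.2 and 9.12 FPKM). The 2 higher were dusp22b, with a log2 change of 2.11, and dusp23b, with 1.66. The receptor feedback inhibitors Sprouty and Spred were lower in 4 of 5, led by spry4 (21.05 and 8.90 FPKM). The kinase gene mapk6 went from 23.3 to 8.72 FPKM (log2 change -1.41), whereas mapk3, which encodes Erk1, was at 18.1 and 14.99 FPKM.

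Cytokine and receptor genes were mostly lower. Of 172 genes 100 passed the filter, 40 were lower and 10 higher, with a median log2 change of -0.41 and summed levels of 582 FPKM in CON, 1490 at H9 and 917 at H18. The chemokine gene cxcl18b, a neutrophil attractant in zebrafish, was at 19.4, 216 and 63.4 FPKM in CON, H9 and H18 (log2 change -1.77), and cxcl8a, the interleukin 8 gene, was at 8.09 FPKM at H9 and 0.560 at H18 (log2 change -3.63). Interleukin gene il1b was at 3.10 and 0.726 FPKM (log2 change -1.96) and crlf1a at 63.4 and 24.5 FPKM (log2 change -1.37). At H18 cxcl8a was below its CON level of 0.735 FPKM, while il1b and crlf1a were still above theirs of 0.173 and 0.468 FPKM. The opposite direction was shown by tnfrsf9a (7.42 and 16.6 FPKM) and il21r.1 (3.78 and 11.1 FPKM), receptors known from activated lymphocytes in mammals, and cxcl13 and ccl35.2 were listed at 0 at H9 and at 2.65 and 3.75 FPKM at H18.

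As a list, heat shock and chaperone genes did not stand apart from the background. Of 83 heat shock and chaperone genes past the filter 21 were lower (25.3% against 23.7% of all features) and 5 higher, with a median log2 change of -0.17, close to that of all genes, and 16 were lower and 7 higher with the shift removed. Among the lower ones were 5 of 7 small heat shock protein genes and 6 of 12 of the Hsp70 family. The gene hspb9 was at 7.19 FPKM in CON, 145 at H9 and 39.6 at H18 (log2 change -1.87), the heat-inducible hsp70l at 14.5 and 5.09 FPKM (-1.49) and dnajb1b at 12.2 and 5.62 FPKM (-1.10). The constitutive hspa8 (475 and 513 FPKM) and hsp90ab1 (267 and 255 FPKM) stayed within 1.5-fold, and the chaperonin gene cct2, whose complex folds actin and tubulin, was higher at 95.8 and 178 FPKM. In the endoplasmic reticulum, 12 of 52 folding and secretion genes were higher and 3 lower, with a median log2 change of 0.28. These included the disulfide isomerase gene pdia3 (62.6 and 127 FPKM) and the calcium-binding chaperone gene calr (33.0 and 57.3 FPKM), while the stress sensor ern1 was lower (log2 change -1.07). Of 40 tRNA synthetase and amino acid response genes past the filter 13 were lower and 3 higher, or 8 and 4 with the shift removed, led by the cystine transporter slc7a11 (4.32 and 0.913 FPKM, log2 change -2.12) and trib3 (15.6 and 4.95 FPKM), whereas shmt2, a serine-using enzyme of one-carbon metabolism, was higher (log2 change 1.06).

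In ribosome production, the medians of the ribosomal proteins and of their assembly factors differed in direction. Of 81 cytosolic ribosomal protein genes 65 stayed within 1.5-fold, 16 were higher and none was lower. The higher share of 19.8% was close to the 15.8% of all features. Their median log2 change was 0.38, and the sum went from 33100 FPKM in CON to 32900 at H9 and 44100 at H18. The largest change was that of rps14, from 511 to 1061 FPKM (log2 change 1.05), and rpl27a, among the most abundant, was at 1298 and 1456 FPKM. In contrast, of 93 nucleolar assembly factors 34 were lower (36.6% against 23.7% of all features) and 1, npm1b, was higher. Their median log2 change was -0.46, with sums of 239 FPKM in CON, 1070 at H9 and 776 at H18. The rRNA modification enzyme gene dkc1 was at 2.28, 22.7 and 11.2 FPKM (log2 change -1.02) and nucleophosmin gene npm1a at 5.47, 102 and 59.1 FPKM (log2 change -0.79) in CON, H9 and H18. With the shift of all genes removed, 18 assembly factors were lower and 2 higher, and 28 ribosomal protein genes were higher and none lower. On that scale 2287 of all 12657 features were lower, so the lower share of the assembly factors was near the background. Their median was then -0.33. Of 68 mitochondrial ribosomal protein genes 6 were higher and 9 lower, or 10 and 3 with the shift removed, and of 102 spliceosome genes 5 were higher and 9 lower, or 10 and 4 with the shift removed, so the direction of both balances rests on the scale.

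Sarcomere genes, already far below CON at 9 hpi, were lower again in many but not all members. Of 33 thick filament genes past the filter 18 were lower and 3 higher, with a median log2 change of -0.78 (-0.42 with no filter), and the sum was 4930 FPKM in CON, 1030 at H9 and 657 at H18. The fast myosin heavy chain genes myhz1.1 and myhc4 had 104 and 74.8 FPKM at H9 and 49.9 and 29.1 at H18, with 487 and 314 in CON. The fast regulatory light chain gene mylpfa was at 1759 FPKM in CON, 271 at H9 and 158 at H18 (log2 change -0.78). These genes lie in tandem or near-identical copies in part, so their division is uncertain. Higher at 18 hpi were the ventricular-type heavy chain vmhc, from 10.7 to 25.7 FPKM (log2 change 1.26), myl10, from 6.61 to 13.9 FPKM (1.06), and the myosin methyltransferase smyd1b, from 6.53 to 11.4 FPKM (0.80), all 3 of them below their CON levels of 37.5, 63.1 and 32.6 FPKM in both injured groups.

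In the thin filament 13 of 33 genes were lower and 4 higher, with a median log2 change of -0.30, and 9 were lower and 6 higher with the shift removed. The muscle actin genes actc1b (577 and 311 FPKM) and acta1b (125 and 57.5 FPKM) were lower, as was fast troponin I gene tnni2b.2 (88.1 and 38.3 FPKM, log2 change -1.20), while troponin C gene tnnc1b, of the slow and cardiac type, was higher at 30.8 and 59.2 FPKM (log2 change 0.94). Of 35 Z disc genes 17 were lower and 2 higher. Calcineurin-binding myoz1b was at 89.5 FPKM in CON, 10.2 at H9 and 1.53 at H18 (log2 change -2.66), and the titin cap gene tcap at 321, 237 and 94.7 FPKM (-1.32). Filamin C gene flnca had been raised over its CON level of 29.2 FPKM at 9 hpi, to 138, and was at 39.6 FPKM at 18 hpi (log2 change -1.80). The 2 higher Z disc genes were pdlim3b, at 4.21 and 11.9 FPKM, and myoz2b, at 1.26 and 2.73 FPKM, and the intermediate filament gene desma was at 138 and 191 FPKM.

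Calcium handling genes were lower in 13 of 37 and higher in 3, with a median log2 change of -0.16, close to that of all genes, yet the sum went from 9140 FPKM in CON to 1420 at H9 and 706 at H18. The difference lay in the abundant members. The calcium pump gene atp2a1 was at 3434, 319 and 110 FPKM (log2 change -1.54), and the calcium buffer gene pvalb4 at 3403, 634 and 232 FPKM (log2 change -1.45). Among parvalbumins pvalb7 was lower too (34.9 and 4.67 FPKM), pvalb3 stayed within 1.5-fold (38.03 and 42.4 FPKM), and pvalb2 was higher, from 4.92 to 23.2 FPKM (log2 change 2.21). Myogenic factors and related genes had no higher member and 4 lower of 23, or 2 lower with the shift removed. The lower share of 17.4% was under the 23.7% of all features, and the median log2 change was -0.16. The 4 were myf6 (2.23 and 0.560 FPKM), myod1 (30.3 and 16.3 FPKM), jam3b and lmod3. The satellite cell genes pax7a (1.93 and 1.70 FPKM) and pax7b (1.70 and 1.66 FPKM) stayed within 1.5-fold, as did the differentiation factor myog (8.99 and 8.09 FPKM).

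In energy metabolism, glycolytic and phosphocreatine genes were lower while respiratory chain genes were not. Of 40 glycolysis and phosphocreatine genes 21 were lower and 4 higher, with a median log2 change of -0.61 and sums of 18000, 3690 and 2400 FPKM in CON, H9 and H18. All 4 creatine kinases were lower, ckmb from 516 to 267 FPKM and the mitochondrial ckmt2a from 41.9 to 9.41 FPKM (log2 change -2.14). For respiratory complex I, 3 of 40 genes were higher and 1 lower, with a median log2 change of -0.01, and for complexes II to V 5 of 53 were higher and 6 lower, or 8 and 6 with the shift removed, with a median of 0.04 and sums of 3500 FPKM at H9 and 3700 at H18, far below the 14200 of CON. Relative to all genes these medians were 0.12 and 0.18.

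For some enzymes and structural proteins the muscle form was lower at H18 relative to its paralog. In mammals COX6A2, COX7A1 and COX8B are the heart and skeletal muscle forms of cytochrome c oxidase subunits. The zebrafish gene cox7a1 went from 15.5 to 3.70 FPKM (log2 change -2.04) and its paralog cox7a2a from 37.7 to 46.5 FPKM (0.30). At H9 cox6a2 was 1.33 times as abundant as cox6a1 and at H18 0.588 times, against 7.96 times in CON. The same ratio for cox8b over cox8a was 8.29 in CON and 0.523 at H18, and for the muscle enolase eno3 over eno1a it was 21.2 in CON, 1.43 at H9 and 0.754 at H18. Skeletal actin actc1b over cytoplasmic actb1 went from 16.1 to 0.573 and 0.234. The paralogs cox6a1 (log2 change 0.67), actb1 (0.40), cox8a (0.33), cox7a2a (0.30) and eno1a (0.08) were above their H9 level, but cox6a1 alone by 1.5-fold. For pgam2 and pgam1a (-0.96 and -0.25) and for pfkma and pfkpa (-1.78 and -0.41) both members were below their H9 level. Of 10 pairs plotted, chosen after their values were seen, so that their number supports nothing, 3 showed little difference between members. The log2 changes were -0.50 and -0.30 for tpm2 and tpm4a, -1.06 and -1.04 for pygma and pygb, and -0.78 and -0.81 for mylpfa and myl9b.

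**Figure D5:**
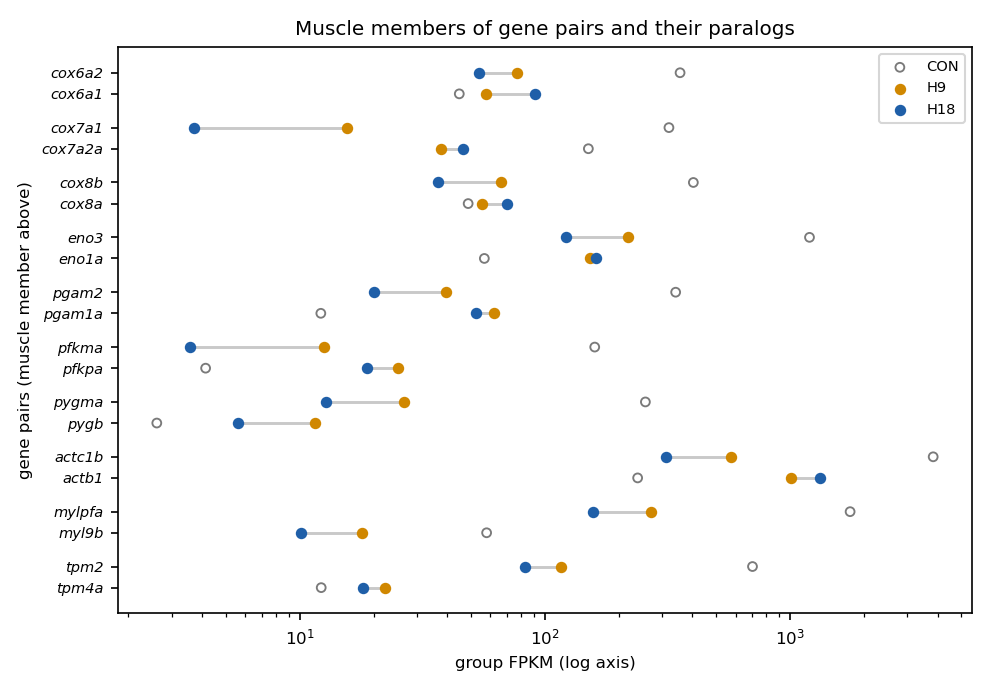
Group FPKM on a log axis for 10 gene pairs, the muscle member above its paralog (open grey circle CON, orange H9, blue H18, 1 authors' value a group). The order of the pair members in CON is reversed at H18 for 7 pairs, cox6a2, cox7a1, cox8b, eno3, pgam2, pfkma and actc1b, the muscle member being the lower 1. For cox7a1, pgam2, pfkma and actc1b the order was already reversed at H9.

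Ribosomal and transfer RNAs of the mitochondrial genome were mostly lower at 18 hpi. The table used held 24 such features, named here through their gene identifiers, and no mitochondrial mRNA was analysed here. All 24 passed the filter, with 17 lower and 1 higher, and a median log2 change of -1.09. The rRNA mt-rnr2 was at 20124 FPKM in CON, 32986 at H9 and 13788 at H18 (log2 change -1.26), and mt-rnr1 at 17611, 25039 and 12305 FPKM (log2 change -1.02). The tRNAs are short, and 3 of them, trnP, trnI and trnD, were listed at 0 at H18, so the tRNA values are uncertain. The libraries had been depleted of ribosomal RNA, and how far that step reached the 2 rRNAs and the tRNAs in each group was not tested. The levels of the 2 rRNAs are therefore uncertain as well.

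The non-muscle cytoskeleton was higher in 23 of 58 genes and lower in 7, with a median log2 change of 0.39. The median was 0.040 over the 41 genes left when the minimum mean was 5 FPKM, so it rests on the less abundant members. Of 16 tubulin genes 11 were higher and none lower, with tubb5 from 5.83 to 16.4 FPKM (log2 change 1.47) and tubb4b from 237 to 369 FPKM. The actin monomer-binding genes tmsb4x (807 and 1239 FPKM) and pfn1 (289 and 469 FPKM) were higher, and actb2 was at 1399 and 1438 FPKM. Microtubule destabilizer stmn1a, a gene of dividing cells, showed a log2 change of 3.10, from 0.204 to 2.50 FPKM, and the lower genes included the membrane linkers msna (74.4 and 47.1 FPKM) and ezrb (22.99 and 14.2 FPKM).

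Fibronectin genes moved in opposite directions. The gene fn1a (chromosome 9, 15391600 to 15453527) was at 10.7 FPKM in CON, 14.8 at H9 and 57.1 at H18 (log2 change 1.94), the largest value of the provisional matrix list, and its paralog fn1b was at 37.6, 27.9 and 16.02 FPKM (log2 change -0.80). Of 32 provisional matrix genes 6 were higher and 13 lower, or 7 and 9 with the shift removed. The growth factor gene mdka was higher, from 2.49 to 7.17 FPKM (log2 change 1.49), and the adhesion gene spp1 (11.7 and 2.18 FPKM) and the fibronectin receptor subunits itga5 (28.7 and 14.5 FPKM) and itgb1b (75.6 and 38.6 FPKM) were lower. Among proteases and their inhibitors 18 of 34 were lower and 2 higher, with mmp13a from 15.3 to 3.21 FPKM (log2 change -2.21), mmp9 from 19.97 to 6.07 (-1.70) and the inhibitor timp2b from 65.5 to 23.2 (-1.49). Of 21 collagen genes past the filter 1, col15a1a, was higher and 6 were lower, including the type X genes and the type V gene col5a3a (8.51 and 2.73 FPKM), while the type I genes stayed within 1.5-fold, col1a1a at 29.4 and 33.1 FPKM and col1a2 at 34.4 and 41.98 FPKM.

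Chromatin genes named by the study differed in direction, and since the study chose them on these samples their direction is not independent evidence. The histone methyltransferase ezh2 (chromosome 24, 17201116 to 17220035) was at 1.12 FPKM in CON, 2.96 at H9 and 2.32 at H18, and its partner suz12a (chromosome 3, 35719834 to 35735965) at 1.77, 3.23 and 2.13 FPKM. Their log2 changes of -0.34 and -0.58 were within 1.5-fold, that of suz12a just so at 1.4964-fold. Of 19 Polycomb genes past the filter 7 were lower and 1, bmi1b, was higher, and when the shift of all genes was removed 3 were lower and 2 higher. The arginine methyltransferase genes prmt5 (8.10 and 5.28 FPKM), prmt7 (5.74 and 2.08 FPKM) and carm1 (8.54 and 5.23 FPKM) were lower, and smarcd1 (4.89 and 3.34 FPKM) was within 1.5-fold. The DNA methyltransferase dnmt1 was higher, from 1.999 to 5.11 FPKM (log2 change 1.31), as were prim2 (0.509 and 2.40 FPKM) and top2a (0.599 and 2.09 FPKM).

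Other genes that the study names for its profiles had a group at or near 0, and they too were chosen on these samples. Those named as present at 9 hpi alone were listed at 0 at H18 and stood at 0.204 (mespbb), 0.363 (nnr), 0.373 (hbbe2), 0.714 (cldn1) and 2.09 FPKM (tspan34) at H9, so only tspan34 passed the filter. Of those that appear at 18 hpi, asprv1 and ccl27b were listed at 0 at H9 and at 3.79 and 1.63 FPKM at H18, and hs6st3a was at 0.0469 and 1.01 FPKM. The peroxidase gene gpx7 dipped from 2.73 FPKM in CON to 0.138 at H9 and stood at 6.53 at H18 (log2 change 4.80), while cldnd and the sperm-like H2A gene LOC100332229, at 6.73 and 9.21 FPKM in CON, were listed at 0 at H9 and at 0.439 and 0.624 FPKM at H18.

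Circadian clock genes differed in both directions. Of 41 genes 12 were higher and 10 lower, or 14 and 7 with the shift removed, with a median log2 change of -0.18, so that the share that was higher, 29.3%, lay above the 15.8% of all features and the share that was lower, 24.4%, close to the 23.7%. The repressor per1a (chromosome 10, 22841357 to 22862051) was at 2.84 FPKM in CON, 0.148 at H9 and 2.48 at H18 (log2 change 3.38). Its relatives per3 (0.962 and 5.31 FPKM) and per1b (0.907 and 3.25 FPKM) were higher too, and per2 was not (3.14 and 2.61 FPKM). The ligase gene fbxl3b, which marks Cry proteins for degradation, went from 3.66 to 18.8 FPKM (log2 change 2.33). Of 5 nfil3 genes, repressors that act opposite to the Dbp and Tef activators, 4 were lower, led by nfil3-5 (5.40 and 0.638 FPKM, log2 change -2.90), and cry2b (8.78 and 3.08 FPKM) was lower as well. The hour of the day at which tissue was taken is not given in the sources used here, so hours after injury and time of day cannot be told apart.

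Markers of other cell types in the dissected tissue also differed. None of 22 endothelium genes was higher and 13 were lower, with a median log2 change of -0.90 (-0.56 with no filter) and summed levels of 83.3 FPKM in CON, 128 at H9 and 67.4 at H18. The vascular regulators sox18 (4.08 and 1.10 FPKM) and etv2 (2.74 and 0.444 FPKM) and the junction gene cdh5 (5.77 and 1.95 FPKM) were among them, and the receptor kdrl, the most abundant, was at 16.8 and 8.52 FPKM. Of 12 erythrocyte genes 8 were lower and 1 higher, the lower ones including the beta globin ba1 (365 and 172 FPKM), and of 15 Schwann cell genes 7 were lower and 1 higher, including the myelin genes mpz (20.2 and 11.1 FPKM) and mbpb (41.3 and 22.9 FPKM). Pigment, lens, cartilage and bone markers, of which 15 of 72 passed the filter, had 11 lower and 1 higher. Their median log2 change was -1.75 (-1.11 with no filter and -1.05 with 1 FPKM added). The summed levels were 170 FPKM in CON, 71.7 at H9 and 26.5 at H18. The bone gene bglap was at 8.39 FPKM at H9 and 1.398 at H18. These markers move with the lower muscle and cytokine genes in the same libraries, and their part in those results was not tested.

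Facts that touch all genes are as follows. The highest FPKM belonged to LOC101885394 (log2 change 1.28), LOC101882117, zgc:158463 and the mitochondrial trnS1 and trnY, of which the first 3 were higher at H18 and the tRNAs lower. At H9 4540 features were listed at 0, and at H18 6501. One group was at 0 and the other at 5 FPKM or more for 85 features, of which 37 were microRNAs, 42 had only clone or LOC names, 3 were mitochondrial tRNAs and 3 were genes with ordinary names. The muscle markers that define the tissue were among the abundant genes of both groups, while 39 of 43 retina and 29 of 30 pancreas and liver markers fell under the filter. The rhodopsin gene rho, the most abundant retina marker, was at 5.75 FPKM at H9 and 0.0843 at H18.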

How the data were processed

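LR muscle RNA was measured by stranded, ribosome-depleted total RNA sequencing in CON, H9 and H18. The authors aligned reads with TopHat2 2.0.13 and Bowtie2 2.2.1 to GRCz10 and the deposited FPKM values came from Cuffdiff 2.2.1, with upper-quartile scaling and reads that fit several places shared out. Each group had 1 FPKM, so depth is unknown and no interval can be given. The levels of a group were the same to within 0.1% in both tables that hold it apart from 12 features for H9, 3 for H18 and 5 for CON. Columns of fold changes, test statistics, p-values, q-values and annotation in the same tables are the authors' own comparisons and were not used. A count table had 14 columns whose names did not match the labels of single samples, so these were not used, and the planned test of counts between H9 and H18 was replaced by FPKM ratios.

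Log2 changes were computed in Python 3.11.15 with pandas 2.3.3 and numpy 2.4.6, with 0.1 FPKM added and a mean of at least 1 FPKM, and a feature was counted as higher or lower from 1.5-fold. The calculation was tested on simulated data. Identifiers were matched to a RefSeq table of another assembly (24851 of 31014) for biotypes and for the names of the mitochondrial features. The members and lists were chosen with earlier results of these data known. Named genes were the 15 largest differences each way among symbols with a mean of at least 5 FPKM and neither group listed at 0, up to 2 members each way and the most abundant member of each list by the same mean, the genes of the study's profiles, the 5 features with the highest FPKM and those listed at 0 in 1 group. All other named genes, the histone, mitochondrial and microRNA lists, the subgroups and the paralog pairs were chosen after their values were seen. Pseudocount, filter, scale and fold were varied.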

Additional observations from a re-analysis of the deposited data

How the results depend on the processing

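With one value per group, no library could be left out. No paired analysis was possible because the group values carry no replicate numbers. The alternatives planned for a test of counts (DESeq2, other count filters, no fold threshold, a replicate block, CON in the same fit and leaving out each replicate) were not run. The 2005 higher and 3004 lower features became 4928 and 8217 with no filter, 676 and 946 with a mean of at least 5 FPKM, and 1034 and 1345 with a fold of 2, as fewer or more features could pass. Other counts were 1478 and 2121 with 1 FPKM added, 2063 and 3114 with 0.01 FPKM, 1951 and 2899 without features listed at 0 in 1 group, and 1652 and 2580 with protein-coding features alone, a setting chosen after seeing the data. Of 470 recomputed list medians 435 moved by no more than 0.2 on the log2 scale, 33 moved further and 2 reversed. The 435 include all 59 centred medians. Centring moves every median by the same amount, which is under 0.2, so these 59 could not be counted as moved. A reversal was counted only for medians of at least 0.2 in size, so smaller medians could change sign without being counted. The collagen median, for example, went from 0.03 to -0.44 with no filter. With 1 FPKM added, the median log2 change was 1.33 for replication licensing, 1.08 for the replication fork and 1.07 for mitosis, and with 0.01 FPKM 2.26 for mitosis. Without a filter it was 1.54 for licensing, 1.59 for mitosis and -0.42 for the thick filament. With a mean of at least 5 FPKM it was 2.01 for the replication fork, 1.47 for the 1 mitosis gene left and -0.39 for 10 clock genes, and it reversed to 0.14 for the dystrophin complex and 0.028 for Polycomb genes, each with 3 genes left. Of 795 recomputed log2 changes of named genes 762 kept their side of 1.5-fold and 33 moved across it, 26 of them by centring. Among named genes past 1.5-fold, 0 reversed, but no setting applied to them could reverse such a change. Another pseudocount keeps the sign, and the shift removed by centring is smaller than 1.5-fold. Low genes are also limited by the unknown depth, whose part was not measured.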

Other observations

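Some signalling lists not described above had more lower members than the 23.7% of all features. Genes of Notch signalling had no higher member and 8 lower of 16, with a median log2 change of -0.52 (4 lower with the shift of all genes removed), and genes of insulin-like growth factor signalling had none higher and 6 lower of 14 (1 and 5 with the shift removed), with igfbp5a at a log2 change of -1.65. In the TGF-beta and BMP pathways 12 of 37 were lower and 2 higher (11 and 4 with the shift removed). The inhibitory Smad gene smad7, which shuts the receptor down, was 4.01-fold lower, at 5.91 FPKM at H9, and fstl3, which binds activin, had a log2 change of -2.09. Retinoic acid genes, at 6 higher and 7 lower of 35, were near the background shares. Among them the enzyme that makes retinoic acid, aldh1a2, was higher (18.0 and 37.1 FPKM) and the enzyme before it, rdh10b, was lower (log2 change -1.96).

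Genes of iron storage and glutathione use were higher in part, fth1a at 372 and 597 FPKM and gstp1 at 15.6 and 31.4 FPKM, among 11 higher and 6 lower of 38 antioxidant genes. Cell death and p53 genes were lower in 12 of 38 and higher in 4 (9 and 6 with the shift removed), with the Bcl2 family genes bcl2l16 (log2 change 1.87) and pmaip1 (1.30) among the higher ones. Of 332 microRNA features 52 passed the filter, 15 higher and 35 lower. MicroRNA precursors were also 37 of the 85 features listed at 0 in 1 group and at 5 FPKM or more in the other, and these values are the least certain in the table. Among genes with ordinary names, anks6 was at 7.06 FPKM and bmf1 at 6.35 FPKM at H9, and both were listed at 0 at H18.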
